A study of Canis lupus familiaris with 21 samples.

Results

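The interleukin receptor genes of the dog were described across prefrontal cortex and plasma extracellular vesicles (EVs, membrane-bound particles that cells release into blood). Members were all rows whose symbol begins with IL, a number and the letter R, which gave 41 of the 34981 genes in each table. The family was chosen by measured values: the choice names IL12RB2 and IL17RD because they moved in opposite directions in CCD cortex. Cortex values of CCD dogs are therefore given for the members as a description, with no test. RNA came from companion dogs with canine cognitive dysfunction (CCD, a dementia-like condition of aged dogs that serves as a natural model of Alzheimer's disease), from old dogs and from young dogs. Cortex gave 3 libraries per group from polyadenylated RNA, and EVs gave 4 libraries per group from total RNA after removal of ribosomal RNA. The sources used here give no breed, sex, age or cause of death, so a group is known by its condition alone. Nothing in the labels states whether the library numbers stand for separate animals, and p-values therefore measure the spread between these libraries.

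Interleukin receptors sit on the cell surface and carry the signal of secreted cytokines into the cell, and most of them work as pairs of chains. Receptors of the IL-6, IL-12, IL-2, IL-4 and IL-10 types signal through JAK kinases and STAT transcription factors. Receptors of the IL-1 family signal through MYD88 and IRAK kinases, and those of the IL-17 family through the adaptor ACT1, encoded by TRAF3IP2. In the brain, microglia, astrocytes, vessel cells and infiltrating lymphocytes are known carriers, and IL1RAPL1 and IL1RAPL2 are IL-1 family members known from neurons.

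Values are the authors' normalised counts, which are scaled so that every library of a table has the same total. They are not divided by transcript length, so levels are compared between libraries and not between genes. Cortex libraries held 14923391 to 31363933 reads, with the CCD libraries shallowest at 14923391 to 18876635, and EV libraries held 27512140 to 44952893 reads. The summed markers of excitatory neurons were at 108640 to 128250 normalised counts in CCD cortex, 146720 to 178480 in old and 134190 to 179040 in young, so the labelled tissue carried its markers. For this sum every CCD library lay below every old and every young library. The part of that difference in the receptor values was not tested. Of the 14 markers of fibroblasts and meninges, all had a mean of 10 or more in cortex, and their sum stood at 27854 in CCD cortex_358, 52411 in young cortex_353 and 37577 in young cortex_377, against 732 to 2623 in the other 6 libraries. In EVs, 74.9% to 84.2% of reads fell on transposable element families, and genes shared what was left.

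In cortex 30 of the 41 receptor genes had a mean normalised count of 10 or more over the 9 libraries, which is 73.2% of the members and compares with 54.3% of all genes. IL2RA, the alpha chain of the IL-2 receptor, and IL20RA, a chain of the IL-20 receptor, lay just inside that threshold at means of 10.1 and 10.6. IL20RB, the other chain of the IL-20 receptor, and IL13RA2, a decoy receptor of IL-13, lay just outside at 8.54 and 8.44. The other 9 below it were IL1RL1 (the receptor of IL-33), IL12RB1, IL2RG, IL2RB, IL18RAP, IL22RA2, IL5RA, IL22RA1 and IL36RN. IL36RN, a secreted antagonist of the IL-36 receptor, had 0 reads in all 9 cortex libraries. That is 0 of 52066267 reads in CCD, 0 of 78572769 in old and 0 of 76447444 in young, and a count of 0 allows up to 3 reads in each pool, for counting error only. Members that passed did so by their mean over all libraries, and IL17RD and IL2RA had a mean under 10 in CCD and IL20RA in old. IL17RD passed only through the groups in which it was high, so its difference is partly built into the filter.

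Several receptors that work as pairs had one chain above the threshold and the other below it. IL12RB1, the chain that IL12RB2 needs to bind IL-12, had 21.4, 4.63 and 9.75 normalised counts in CCD cortex, 5.01, 10.5 and 2.57 in old and 5.17, 7.05 and 5.87 in young. Its groups overlapped, and it had 68 reads over the 9 libraries. IL2RG, the common gamma chain that the receptors of IL-2, IL-4, IL-7, IL-15 and IL-21 share, had 0, 4.63 and 9.75 in CCD, 3.34, 2.86 and 3.43 in old and 15.5, 23.2 and 6.60 in young. IL1RL1 had 20.2, 0 and 0 in CCD, 7.52, 0.952 and 1.71 in old and 22.8, 5.04 and 15.4 in young, while IL33, its ligand, averaged 95.2 ± 92.2 in CCD, 401 ± 389 in old and 54.0 ± 5.01 in young (SD, n = 3 each). The 5 members with the most normalised counts in cortex were IL17RA, the shared chain of the IL-17 receptors, with a mean of 996 over the libraries, IL13RA1 (a chain of the IL-4 and IL-13 receptor) with 545, IL1R1 (the receptor of IL-1) with 513, IL17REL with 497 and IL27RA (a chain of the IL-27 receptor) with 379.

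IL12RB2, the signalling chain of the IL-12 receptor known from T and NK cells, had 267, 241 and 208 normalised counts in CCD cortex, 161, 166 and 164 in old cortex and 78.6, 82.6 and 67.5 in young cortex. Every CCD library was above every old library, and every old library was above every young library. The mean was 239 ± 29.4 in CCD, 164 ± 2.23 in old and 76.2 ± 7.84 in young (SD, n = 3 each). The log2 fold change was 0.54 ± 0.26 (SE) for CCD against old, 1.63 ± 0.26 for CCD against young and 1.10 ± 0.26 for old against young. It rested on 539 reads in CCD, 558 in old and 250 in young. The ratio of read rates was 1.46 for CCD over old, with an exact 95% interval of 1.29 to 1.64 that covers counting error alone and is given as a description of a value that chose the family. Without the 3 libraries with high meningeal markers the log2 fold change was 0.63 for CCD against old and 1.05 for old against young. The summed T and NK cell markers, of which CD247 made up most, were at 1171 to 1910 in CCD, 1266 to 1808 in old and 943 to 1469 in young, with 7 of 15 markers at a mean of 10 or more. Of these markers, CD8A and TRAT1 had 0 reads in all CCD and old cortex libraries. Of the other markers, CD247, CD4, LCK and GZMA had a lower mean in CCD than in old, and the rest had a higher mean. CD3D was at 7.31 to 10.1 normalised counts in CCD cortex, against 0 in old. CD3E was at 0 to 15.8 in CCD, against 0.835 to 4.76 in old, and CD2 at 17.6 to 176, against 3.34 to 26.7. The part of T and NK cells in the IL12RB2 values was not tested. In bulk tissue, fewer cells of a type and less RNA per cell cannot be told apart.

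IL17RD, a membrane protein known also as SEF that dampens fibroblast growth factor signalling and binds IL-17 receptor chains, went the other way in CCD. It had 0, 3.08 and 2.44 normalised counts in CCD cortex, 24.2, 11.4 and 28.3 in old cortex and 21.7, 36.3 and 117 in young cortex. All CCD libraries lay below all others, and the old and young libraries overlapped. The log2 fold change was -3.12 ± 0.83 (SE) for CCD against old and -4.27 ± 0.83 for CCD against young, on the scale of log2 of the normalised count plus 1, and -1.15 ± 0.83 for old against young. These rest on 4 reads among the 52066267 of the CCD libraries, against 74 among the 78572769 of the old ones and 217 in the young ones. As a description, the ratio of read rates for CCD over old was 0.0816, with an exact 95% interval of 0.0217 to 0.218 for counting error alone. For CCD over young it was 0.0271, with an interval of 0.00731 to 0.0703. With a pseudocount of 5 the log2 fold change for CCD against old was -1.91, since the pseudocount weighs heavily at so few reads.

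**Figure D1:**
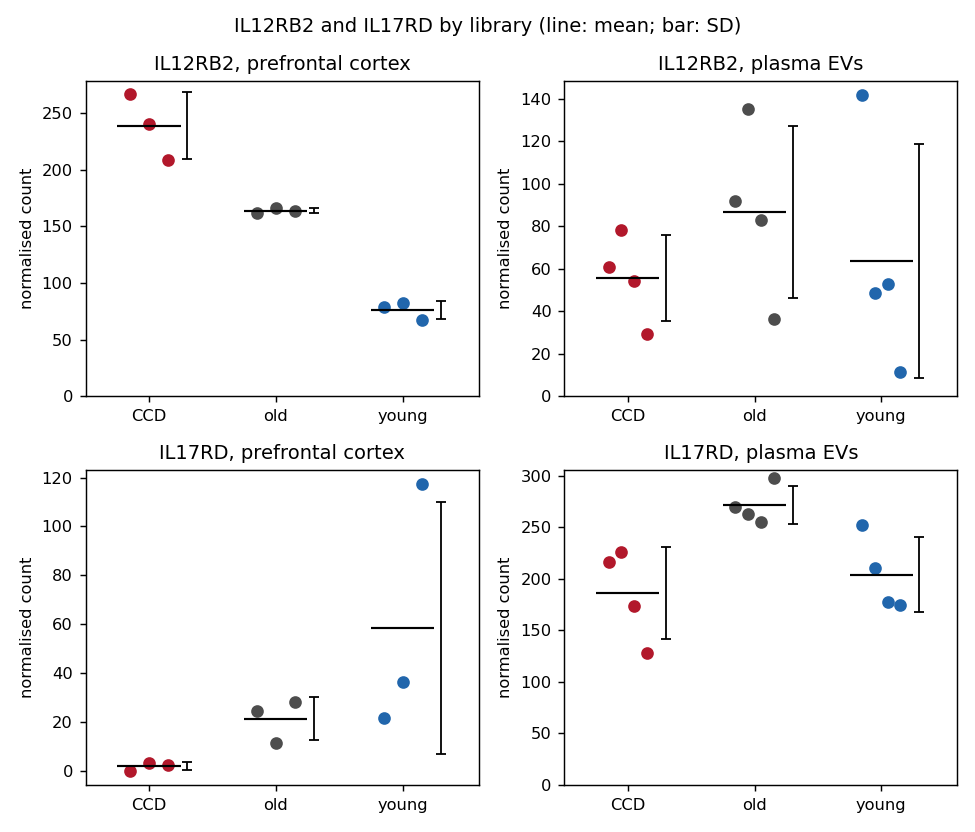
Normalised counts of IL12RB2 (top) and IL17RD (bottom) in prefrontal cortex (left) and plasma EVs (right) for CCD, old and young libraries; points are libraries, lines are group means and bars are the SD. In cortex IL12RB2 ran from 208 to 267 in CCD, against 161 to 166 in old and 67.5 to 82.6 in young, and IL17RD was at 3.08 or less in CCD, against 11.4 or more in the other groups.

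Against old cortex, CCD cortex had higher values for 17 of the 30 receptor genes and lower values for 13, with a median log2 fold change of 0.22 beside -0.10 for all 19010 genes. The groups did not overlap for 7 genes that were higher in CCD, a direction without overlap that 11.9% of all genes showed, and for 1 that was lower, IL17RD, which 22.6% of all genes showed. With limma and Benjamini-Hochberg adjustment 0% of all genes passed in this comparison. The libraries of this comparison are those that chose the family, so nothing is read from these counts. TMM scaling put the median of all genes at 0.0036, and members at that scaling were 18 higher and 12 lower. edgeR and DESeq2, which fit mean counts and not mean log values, gave 21 higher and 9 lower, with medians of 0.43 for each. Without the 3 libraries with high meningeal markers, which leaves 2 CCD libraries, 15 members were higher and 15 lower, and the median of the members was -0.06 beside -0.14 for all genes. The direction of the family's median thus rested on CCD cortex_358.

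Of the 6 measured receptors of the IL-17 family, 4 were higher in CCD than in old cortex and 2 were lower. IL17RC, which pairs with IL17RA to bind IL-17A and IL-17F, had 317, 344 and 414 in CCD, against 259, 190.4 and 182 in old (log2 fold change 0.77 ± 0.36, SE). IL17REL, a relative of IL17RE, had 469.9, 559.7 and 849.6 in CCD, against 321, 446 and 335 in old (0.74 ± 0.43). IL17RB, the chain that binds IL-25, had 325, 279 and 232 in CCD, against 200.5, 218 and 188 in old (0.45 ± 0.27). For these 3 genes every CCD library was above every old one. The spread was wider in young cortex, where IL17REL had 252, 918 and 321 and the highest value belonged to cortex_353. IL17RA overlapped between CCD and old (0.51 ± 0.32), and so did IL17RE, the chain that binds IL-17C (-0.27 ± 0.36).

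Among the receptors that share the gamma chain, the beta chain or the IL-4 receptor chain, 6 of 7 were higher in CCD than in old cortex, or 5 of 7 without the 3 libraries with high meningeal markers, where IL15RA was at -0.18. IL4R, the chain that binds IL-4, had 70.5, 128 and 168 in CCD, against 68.5, 34.3 and 24.8 in old, with a log2 fold change of 1.54 ± 0.46 (SE). Its groups were apart by a narrow margin, between the lowest CCD and the highest old library. IL3RA, the IL-3 receptor alpha chain, had 15.1, 26.2 and 86.5 in CCD, against 11.7, 8.57 and 14.6 in old (1.45 ± 0.73). The highest IL3RA value was in CCD cortex_358, where the meningeal markers were high, and without that library the log2 fold change was 0.76. IL7R, the IL-7 receptor, had 29.0, 64.8 and 20.7 in CCD, against 20.9, 21.9 and 21.4 in old (0.64 ± 0.51), and 1 CCD library lay below the old ones. IL13RA1, IL15RA (which presents IL-15) and IL21R (the IL-21 receptor) had log2 fold changes of 0.31 ± 0.31, 0.20 ± 0.45 and 0.32 ± 0.58. IL2RA was the lower one, at 0, 16.96 and 7.31 in CCD, against 14.2, 5.71 and 10.3 in old (-0.98 ± 1.02), and it was at 0.22 without CCD cortex_163, the library with 0 reads.

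The IL-10 type receptors IL10RA, IL10RB and IL20RA had log2 fold changes of 0.55 ± 0.35, 0.57 ± 0.42 and 0.02 ± 0.76 (SE) for CCD against old cortex, and IL20RA was at -0.42 without the 3 libraries with high meningeal markers. IL10RB, the chain shared by the receptors of IL-10, IL-22 and type III interferons, had 149, 185 and 290.1 in CCD, against 148, 124 and 134 in old. The CCD and old values of IL10RB did not overlap, although the nearest libraries were within 1 normalised count of each other. Without CCD cortex_358 the log2 fold change of IL10RB was 0.30.

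The log2 fold changes of the 7 measured IL-1 family receptors depended on the scale in CCD against old cortex. On the scale of mean log values all 7 were negative, from -1.14 to -0.08, while edgeR and DESeq2 had 4 positive, IL1R1, IL1R2, IL1RL2 and IL18R1, and 3 negative. With TMM scaling IL1R1 alone was positive, at 0.02. Single low libraries weighed in some of them: IL1R2 was at 0.88 without CCD cortex_163, where it had 0 reads, and IL1RL2 was at 0.73 without CCD cortex_354, where it had 6.17 normalised counts. IL1R1 was also positive without cortex_163, cortex_354, cortex_250 or cortex_264, and IL18R1 without cortex_163, cortex_354 or cortex_250. IL1RAP, IL1RAPL1 and IL1RAPL2 stayed negative under each of these. The values were IL1RAPL2 -1.14 ± 0.79 (SE), IL1RAP (the shared accessory chain of IL-1 and IL-33 signalling) -0.76 ± 0.45, IL1RAPL1 -0.67 ± 0.64, IL1R2 (a decoy receptor of IL-1) -0.62 ± 1.198, IL1RL2 (the IL-36 receptor) -0.54 ± 0.87, IL18R1 (the IL-18 receptor) -0.14 ± 0.64 and IL1R1 -0.08 ± 0.57. IL1RAP had 26.5, 50.9 and 59.7 in CCD, against 79.3, 59.0 and 86.5 in old, and 1 CCD library lay just above the lowest old one. IL1RN, the secreted antagonist of the IL-1 receptor, went the other way at 18.9, 98.7 and 48.8 in CCD, against 12.5, 14.3 and 22.3 in old (1.45 ± 0.60), with 1 CCD library inside the old range.

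In the IL-6 and IL-12 group, 3 of 6 genes were higher in CCD than in old cortex and 3 were lower. IL31RA, the IL-31 receptor, had 17.6, 137 and 51.2 in CCD, against 108, 127 and 69.4 in old (log2 fold change -0.95 ± 0.71, SE). IL23R, which pairs with IL12RB1 to bind IL-23, was at -0.49 ± 0.71 and IL27RA at -0.16 ± 0.24. IL6R, which binds IL-6 beside the shared chain IL6ST, was at 0.43 ± 0.34, and IL11RA, the IL-11 receptor, at 0.23 ± 0.41. All of these overlapped between the groups, while IL12RB2, which the choice of the family names for its change in CCD cortex, did not.

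**Figure D2:**
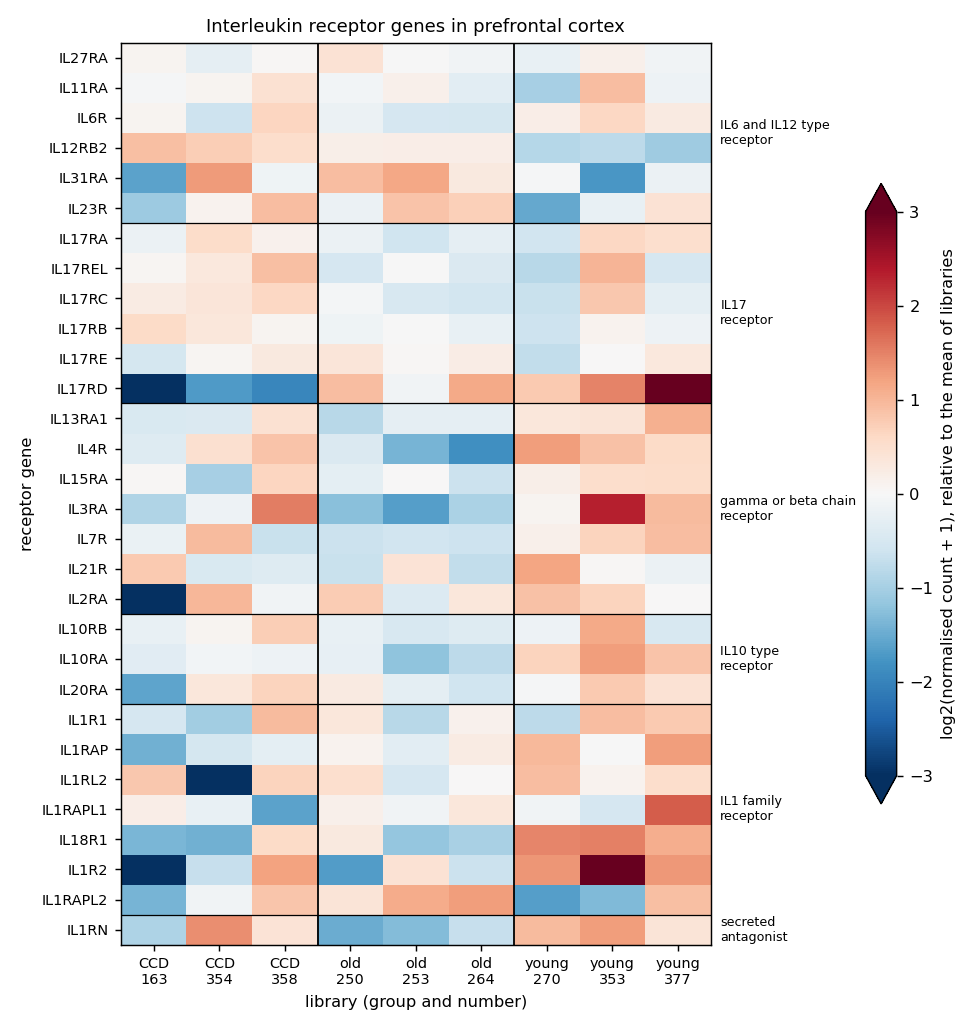
Level of the 30 receptor genes with a mean of 10 or more in the 9 cortex libraries, as log2 of the normalised count plus 1 relative to the mean of the libraries, with CCD at the left, then old, then young, and genes grouped by receptor type; values beyond 3 in either direction are drawn at the end of the colour scale. The lowest values of IL17RD are those of the CCD libraries, and young cortex_353 held the highest value of 10 of the 30 genes.

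Against young cortex, CCD cortex had higher values for 11 of the 30 receptor genes and lower values for 19, with a median log2 fold change of -0.52 beside -0.09 for all genes. That median was -0.16 without CCD cortex_163, -0.18 without CCD cortex_354, -0.30 with edgeR, -0.29 with DESeq2 and -0.02 over the 19 members with a mean of 50 or more. The groups did not overlap for 1 gene that was higher in CCD, IL12RB2, a pattern that 5.28% of all genes showed, and for 5 that were lower, a pattern that 8.22% of all genes showed. With limma and Benjamini-Hochberg adjustment 0% of all genes passed. The 5 lower genes were IL10RA, IL17RD, IL18R1, IL1R2 and IL1RAP. Values depended on the libraries. Without the 3 libraries with high meningeal markers, which leaves 2 CCD libraries and 1 young library, 14 genes were higher and 16 lower. The median of the members was then -0.31 beside -0.10 for all genes.

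IL1R2 had 0, 10.8 and 42.7 normalised counts in CCD cortex, against 46.5, 152 and 46.2 in young cortex, a log2 fold change of -3.13 ± 1.198 (SE). IL18R1 had 11.3, 10.8 and 46.3 in CCD, against 87.9, 90.7 and 66.8 in young (-2.11 ± 0.64). IL1RAP had 26.5, 50.9 and 59.7 in CCD, against 145, 72.6 and 175 in young (-1.48 ± 0.45). These 3 genes of the IL-1 family were low in all CCD libraries relative to young ones, and old cortex lay near CCD for IL1R2 and IL18R1, at 5.01 to 24.8 and 13.3 to 38.4. IL2RA was the fifth by size among the lower ones, at -1.27 ± 1.02, or -0.07 without CCD cortex_163. On the higher side, IL12RB2 at 1.63 was followed by IL17RB at 0.56 ± 0.27, IL17REL at 0.53 ± 0.43, IL31RA at 0.49 ± 0.71 and IL1RAPL2 at 0.46 ± 0.79, and all 4 of these overlapped. Without the 3 libraries with high meningeal markers IL31RA was at -0.14. All 7 receptors with a shared gamma, beta or IL-4 receptor chain were lower in CCD than in young cortex, from -1.27 to -0.37, although IL7R was at 0.22 without the 3 libraries with high meningeal markers.

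**Figure D3:**
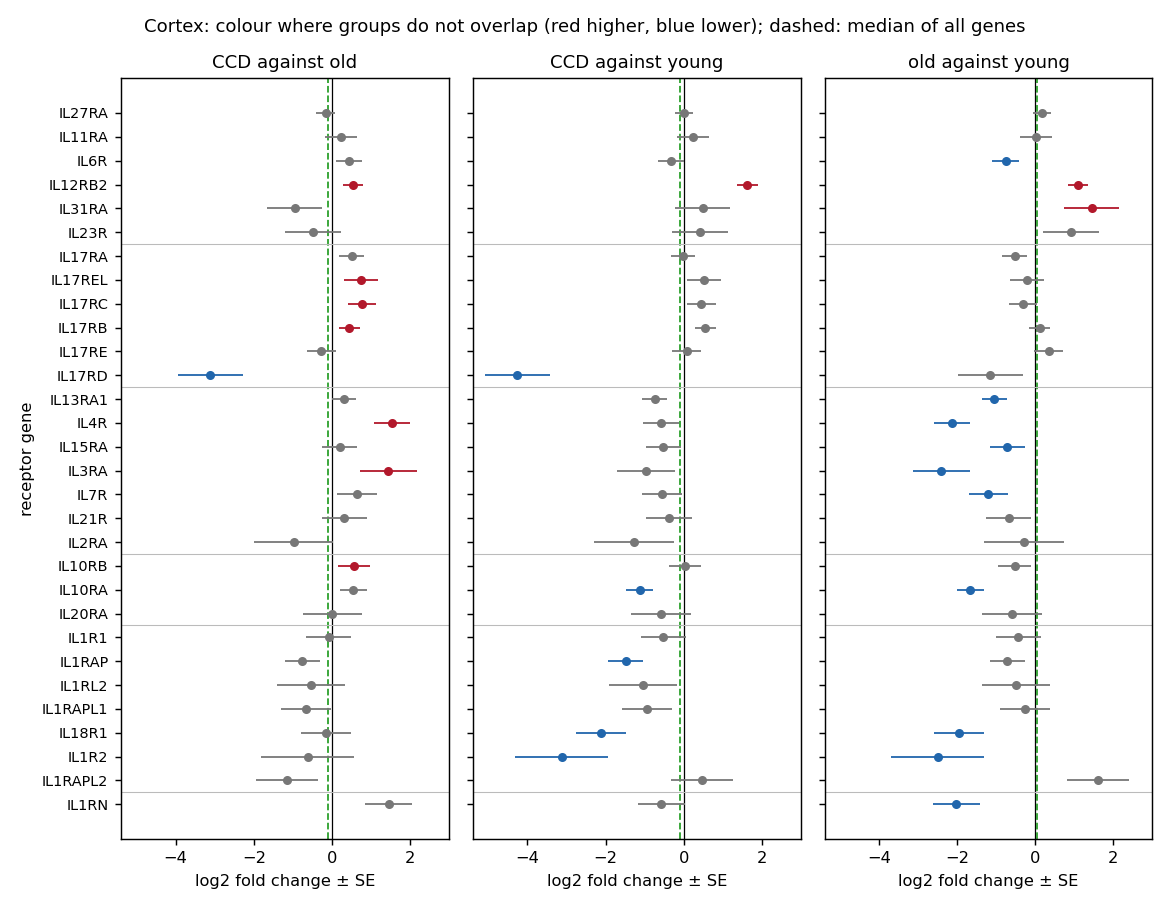
Log2 fold change of each receptor gene in cortex with its SE for CCD against old, CCD against young and old against young; red and blue mark genes whose groups did not overlap, higher and lower in the first-named group, and the dashed line is the median of all genes. IL12RB2 lies to the right in all 3 comparisons, at 0.54, 1.63 and 1.10, and IL17RD lies far to the left in the 2 comparisons with CCD, at -3.12 and -4.27.

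Old cortex was set against young cortex to see how the receptors stood with age in dogs without CCD. This comparison shares its libraries with those of CCD, so its values are not independent of them. Of the 30 receptor genes, 22 had lower and 8 had higher values in old cortex, with a median log2 fold change of -0.53 beside 0.03 for all genes. None of the 30 passed limma with Benjamini-Hochberg adjustment (0% of all genes passed), and the smallest adjusted p of a member was 0.399. At an unadjusted p under 0.05, 1 gene was higher, which was IL12RB2 (2.85% of all genes), and 8 were lower (3.89% of all genes). The 8 were IL10RA, IL13RA1, IL18R1, IL1RN, IL3RA, IL4R, IL6R and IL7R. Where groups do not overlap in this comparison, that is stated for single genes as a description. The share of all genes with that pattern is not given here, so nothing is read from it. edgeR called 0 of the 30 and DESeq2 called 4, IL10RA, IL12RB2, IL3RA and IL4R, on the reads recovered from the normalised counts, where DESeq2 called 1.14% of all genes.

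IL10RA, the chain that binds IL-10 and is known from microglia and from immune cells of the blood, had 84.4, 42.8 and 57.4 normalised counts in old cortex, against 158, 239.8 and 182 in young cortex. The groups did not overlap, and the CCD libraries, at 78.1, 94.1 and 90.2, were also below the young ones. The log2 fold change for old against young was -1.67 ± 0.35 (SE; limma with Benjamini-Hochberg adjusted p = 0.399), lower in 3 of 3 old libraries than in any young one, and DESeq2 gave an adjusted p of 0.0022. IL4R had 68.5, 34.3 and 24.8 in old, against 221, 170.3 and 139 in young, a log2 fold change of -2.13 ± 0.46 (limma adjusted p = 0.449; DESeq2 adjusted p = 0.00521). IL1RN had 12.5, 14.3 and 22.3 in old, against 72.4, 88.7 and 48.4 in young (-2.03 ± 0.60, limma adjusted p = 0.512). All 3 of these genes were lower in each old library than in each young one, and IL4R and IL1RN had CCD values between or across those of the other groups.

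IL3RA had 11.7, 8.57 and 14.6 in old cortex, against 31.0, 151 and 57.2 in young cortex (log2 fold change -2.41 ± 0.73, SE; limma adjusted p = 0.524; DESeq2 adjusted p = 0.0287). IL18R1 had 38.4, 13.3 and 15.4 in old, against 87.9, 90.7 and 66.8 in young (-1.97 ± 0.64, limma adjusted p = 0.555). IL13RA1 had 283, 421 and 417 in old, against 638, 661 and 1056 in young (-1.05 ± 0.31, limma adjusted p = 0.517). None of the 3 overlapped between old and young. IL7R and IL6R were at -1.201 ± 0.51 and -0.76 ± 0.34, also without overlap. All 7 receptors with a shared gamma, beta or IL-4 receptor chain had negative log2 fold changes in old cortex, from -2.41 to -0.29, also under TMM scaling, quantile normalisation and without the 3 libraries with high meningeal markers. The exception was IL2RA, at 0.03 without old cortex_253.

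The members with the smallest p on the higher side after IL12RB2 were IL31RA and IL1RAPL2. IL31RA had 108, 127 and 69.4 in old cortex, against 54.8, 16.1 and 49.9 in young cortex, with no overlap (log2 fold change 1.44 ± 0.71, SE; limma adjusted p = 0.763). IL1RAPL2 had 28.4, 47.6 and 53.1 in old, against 6.20, 8.06 and 41.1 in young, and the young library cortex_377 lay within the old range (1.60 ± 0.79, limma adjusted p = 0.763). The other members on the higher side had log2 fold changes of 0.91 for IL23R, 0.34 for IL17RE, 0.18 for IL27RA, 0.11 for IL17RB and 0.01 for IL11RA, the last of which was at -0.02 with TMM scaling.

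**Figure D4:**
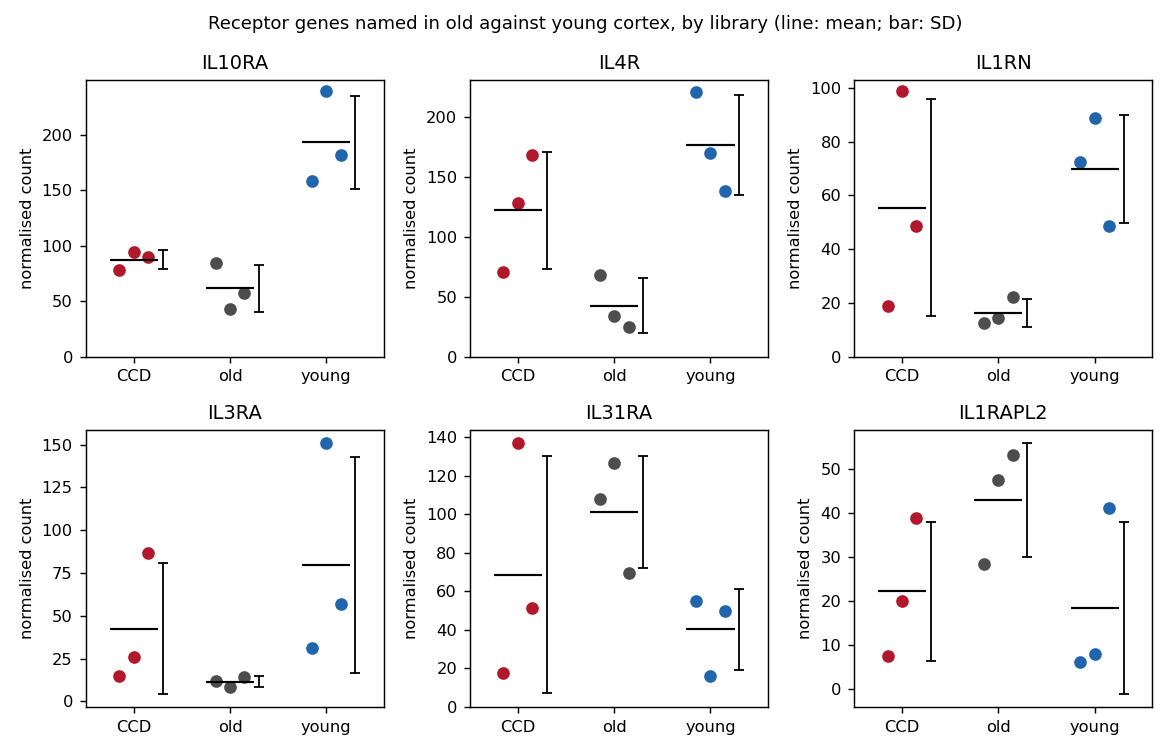
Normalised counts in cortex of 6 receptor genes in CCD, old and young libraries; points are libraries, lines are group means and bars are the SD. IL10RA, IL4R, IL1RN and IL3RA were lower in every old library than in every young one, IL31RA was higher in every old library, and the values of IL1RAPL2 overlapped.

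Astrocyte markers differed between old and young cortex without overlap, while meningeal, microglial and oligodendrocyte markers varied between libraries with overlap. The 6 oligodendrocyte markers in the table summed to 197150 to 272770 in old cortex, 34583 to 215120 in young and 244170 to 629410 in CCD. The 7 astrocyte markers, all with a mean of 10 or more, summed to 72164 to 91491 in old cortex and 116020 to 118810 in young cortex, with no overlap, and to 98949 to 99670 in CCD. The CCD sums of astrocyte markers thus overlapped neither the old nor the young ones. The summed microglial markers, all 12 of which had a mean of 10 or more, were at 4327 to 7389 in old cortex and 7020 to 16651 in young cortex, and at 5040 to 9369 in CCD. Without the 3 libraries with high meningeal markers, which leaves 1 young library, the receptor genes were 13 higher and 17 lower in old, with a median log2 fold change of -0.19 beside 0.05 for all genes. In that comparison IL10RA was at -1.40, IL4R at -2.48, IL1RN at -2.12 and IL3RA at -1.37. With 1 young library these are given as effect sizes only. The part of the astrocyte, microglial, oligodendrocyte and meningeal markers in these values was not tested.

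Genes that act beside the receptors were read in cortex as lists, and 0 members of any list passed limma with Benjamini-Hochberg adjustment in any cortex comparison. The lists were chosen with earlier results of these data known, and CCD cortex values chose the family. Counts of list genes in CCD cortex are therefore a description and are no support for a change of the family. Of 44 interleukin ligands in the table, 17 could be tested, and 13 of the 17 were higher in CCD than in old cortex, with a median log2 fold change of 0.41 beside -0.10 for all genes, of which 42.9% were higher. At an unadjusted limma p under 0.05, 2 of the 17 were higher, beside 3.99% of all genes, and 0 were lower, beside 10.8% of all genes. EBI3, a subunit of IL-27 and IL-35, averaged 128 ± 43.9 in CCD, against 36.5 ± 15.6 in old (1.81 ± 0.61, SE; limma adjusted p = 0.29). IL23A, the subunit of IL-23 that pairs with IL12B, averaged 97.6 ± 23.7 in CCD, 67.2 ± 4.02 in old and 44.8 ± 7.54 in young, and its log2 fold change was 1.09 ± 0.35 for CCD against young (limma adjusted p = 0.363). IL15, the ligand of IL15RA, was at 1.63 ± 0.73 for CCD against old (limma adjusted p = 0.334), and IL10, the ligand of IL10RA, was at -1.52 ± 0.55 for old against young (limma adjusted p = 0.617). IL12A, a subunit of IL-12, averaged 146 ± 51.4, 114 ± 42.6 and 88.3 ± 31.0 in the same groups, and its values did not pass. IL12B, which IL-12 and IL-23 share, had a mean of 2.03 in CCD, 0.571 in old and 0.489 in young and was not tested.

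Of the 13 genes of the type 1 lymphocyte program that IL-12 is known to drive, 5 could be tested in cortex and 0 passed. JAK2 and TYK2, the kinases bound to the IL-12 receptor chains, stood on opposite sides in CCD against old cortex. JAK2 averaged 185 ± 77.6 in CCD, against 420.4 ± 74.3 in old (log2 fold change -1.24 ± 0.46, SE; limma adjusted p = 0.302), and TYK2 averaged 689 ± 153 in CCD, against 373 ± 128 in old (0.93 ± 0.40, limma adjusted p = 0.328). STAT4, the transcription factor that IL-12 activates, was at -0.30 ± 0.31. None of these passed, so they are given as values.

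Of the 29 measured genes of the growth factor pathway that IL17RD dampens, 24 had negative log2 fold changes in CCD against old cortex, with a median of -0.32 beside -0.10 for all genes, of which 57.1% were lower. None passed. At an unadjusted limma p under 0.05, 7 of the 29 were lower, beside 10.8% of all genes, and 0 were higher, beside 3.99%. The list was built around IL17RD, which was named for its change in these same libraries, so nothing is read from these counts. SPRY2 and SPRED2, which are feedback inhibitors of the same pathway, were at -0.56 ± 0.19 and -0.71 ± 0.24 (SE; limma adjusted p = 0.29 for both). SPRY2 averaged 633 ± 61.3 in CCD, 937 ± 113 in old and 941 ± 90.5 in young (SD, n = 3 each). ETV1, a transcription factor of the pathway, averaged 1420.5 ± 109 in CCD, 2139 ± 29.2 in old and 1074 ± 299.6 in young, so its value in old stood above both other groups. Its log2 fold change was -0.59 ± 0.22 for CCD against old (limma adjusted p = 0.302) and 1.04 ± 0.22 for old against young (limma adjusted p = 0.449).

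The partner chains that the naming rule leaves out and the JAK and STAT genes completed the lists in cortex. Of 19 tested partner chains, 7 were higher and 12 lower in CCD than in old, and 4 were higher and 15 lower in old than in young. Of all genes, 57.1% were lower in CCD than in old, 46.1% in old than in young and 57.1% in CCD than in young. CSF2RB, the beta chain that pairs with IL3RA, averaged 27.7 ± 7.65 in CCD, 24.7 ± 12.99 in old and 103 ± 21.5 in young, with a log2 fold change of -2.12 ± 0.48 for old against young (SE; limma adjusted p = 0.45). CSF2RA, the alpha chain of the GM-CSF receptor, was at 1.22 ± 0.44 for CCD against old (limma adjusted p = 0.292). Of 28 JAK and STAT genes, 21 were lower in CCD than in old, 22 in old than in young and 26 in CCD than in young. These counts stand beside the shares of all genes given above, and 0 passed. STAT3 was at -0.77 ± 0.24 for old against young (limma adjusted p = 0.526). Of the 27 MYD88, IRAK and ACT1 genes, 15 were higher and 12 lower in CCD than in old. TRAF3, which restrains IL-17 receptor signalling, was at -1.34 ± 0.44 in that comparison and TOLLIP, an inhibitor of IL-1 receptor signalling, at -0.59 ± 0.21 (limma adjusted p = 0.29 and 0.291). TRAF3IP2, the adaptor ACT1, was at -1.05 ± 0.41 for old against young (limma adjusted p = 0.647).

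In plasma EVs all 41 receptor genes had a mean normalised count of 10 or more and at least 1 read in every library, where 90.7% of all genes had such a mean. The 5 members with the most normalised counts were IL6R with a mean of 539.6, IL2RB (the IL-2 receptor beta chain) with 495, IL4R with 488, IL1R1 with 416 and IL7R with 282. The lowest was IL13RA2 with 12.9. Genes with no or few cortex reads were present: IL36RN, with 0 reads in cortex, had 222 reads in CCD EVs, 246 in old EVs and 293 in young EVs, and IL22RA1, a chain of the IL-22 receptor with 6 cortex reads, had a mean of 189. Tables were scaled apart for cortex and EVs and the library kits differ, so no fold was computed across them.

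Markers of several blood and tissue cell types were also read in the EV libraries. Summed T and NK cell markers were at 3085 to 4973 in CCD EVs, 2471 to 3622 in old EVs and 2645 to 6376 in young EVs, with all 15 at a mean of 10 or more. The 9 neutrophil and monocyte markers in the table summed to 1026 to 1270 in CCD, 1500.4 to 2550 in old and 1130.2 to 5209 in young. The 12 microglial markers summed to 1099 to 1278 in CCD, 1490 to 1594 in old and 1222 to 1760.0 in young. Markers of other cell types were also read: 8 excitatory neuron markers summed to 1659 to 2171.5 in CCD, 1843 to 2999.7 in old and 2194 to 2484 in young. The 14 markers of fibroblasts and meninges summed to 3028 to 5625.5, 3401 to 4324 and 2990 to 4351 in the same groups. These sums do not show which cells the EV RNA came from. The part of any of these cells in the receptor values was not tested.

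CCD EVs were set against old EVs in libraries that the choice of the family did not use. Of the 41 receptor genes, 8 were higher and 33 lower in CCD, with a median log2 fold change of -0.34 beside -0.27 for all 31728 genes tested. Of all genes, 20.0% were higher and 80.0% lower, so the split of the receptor genes was near that of all genes. The median gene was thus lower in CCD at this scaling. The share of reads on transposable element families overlapped, at 74.9% to 82.9% in CCD and 76.3% to 83.6% in old. The 10 genes with the most reads took 26.2% to 42.8% of gene reads in CCD and 17.7% to 27.5% in old. TMM scaling moved the median of all genes to 0.0005, with 14 members higher and 27 lower. None of the 41 passed limma with Benjamini-Hochberg adjustment (0% of all genes passed), nor edgeR or DESeq2. At an unadjusted p under 0.05, 0 genes were higher (0.64% of all genes) and 7 were lower (5.34% of all genes), namely IL10RA, IL10RB, IL15RA, IL17RB, IL17RD, IL22RA1 and IL7R. With TMM scaling 0 were lower and 1 was higher at that level, and with DESeq2 0 and 3. Without CCD EV_523 1 was lower, IL10RB, and leaving out 1 old library gave 3 to 5 lower. The count of 7 thus depended on the scaling and on single libraries.

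IL10RB had 71.5, 73.9, 66.5 and 71.4 normalised counts in CCD EVs, against 121, 113, 101 and 92.0 in old EVs. Every CCD library was below every old one, with a log2 fold change of -0.58 ± 0.22 (SE), or -0.31 relative to the median of all genes (limma adjusted p = 0.777). IL17RD had 216, 226, 174 and 128 in CCD EVs, against 270.2, 263, 255 and 297 in old EVs, also without overlap (-0.57 ± 0.22, or -0.30 relative to all genes; limma adjusted p = 0.777). IL15RA had 91.1, 75.7, 42.6 and 46.2 in CCD, against 117, 112, 123 and 79.5 in old, and 1 CCD library lay within the old range (-0.80 ± 0.32, limma adjusted p = 0.777). The groups also did not overlap for IL17RB, IL22RA1 and IL7R, all lower in CCD, which makes 5 of 41 lower beside 5.08% of all genes and 0 higher beside 0.845%. With TMM, edgeR, DESeq2 and quantile scaling 0 members were lower without overlap and 1 or 2 were higher.

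On the higher side in CCD EVs against old EVs, IL1R1 had 491, 526, 420.3 and 390.4 in CCD, against 404, 403, 348 and 270.2 in old. The groups overlapped by 1 CCD library, with a log2 fold change of 0.37 ± 0.21 (SE), or 0.64 relative to the median of all genes (limma adjusted p = 0.777). IL1RAPL1 had 175, 202, 583 and 113 in CCD, against 209, 145, 138 and 167 in old (0.44 ± 0.43, limma adjusted p = 0.805). Its highest value was in CCD EV_358, and without that library the log2 fold change was -0.03. IL4R had 467, 418, 483 and 662 in CCD, against 395, 298, 485 and 551 in old (0.25 ± 0.29, limma adjusted p = 0.827). All 6 IL-17 receptors, all 6 IL-10 type receptors and both secreted antagonists were lower in CCD than in old EVs at the deposited scaling with all libraries. At that scaling 80.0% of all genes were lower. Relative to the median of all genes, IL17RC at 0.26, IL17RE at 0.20 and IL22RA2, a soluble decoy of IL-22, at 0.20 were higher.

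IL12RB2 in EVs did not show the order it had in cortex. It had 60.7, 78.5, 54.1 and 29.4 normalised counts in CCD EVs, 91.9, 136, 83.0 and 36.3 in old EVs and 142, 48.8, 52.7 and 11.5 in young EVs, and all groups overlapped. Its log2 fold change was -0.57 ± 0.61 (SE) for CCD against old (limma adjusted p = 0.818), 0.76 ± 0.61 for old against young and 0.20 ± 0.61 for CCD against young (limma adjusted p = 1 for both). The last of these was -0.44 without young EV_502, the library with the lowest value. Whether IL12RB2 and IL17RD differ between cortex and EVs was not tested.

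**Figure D5:**
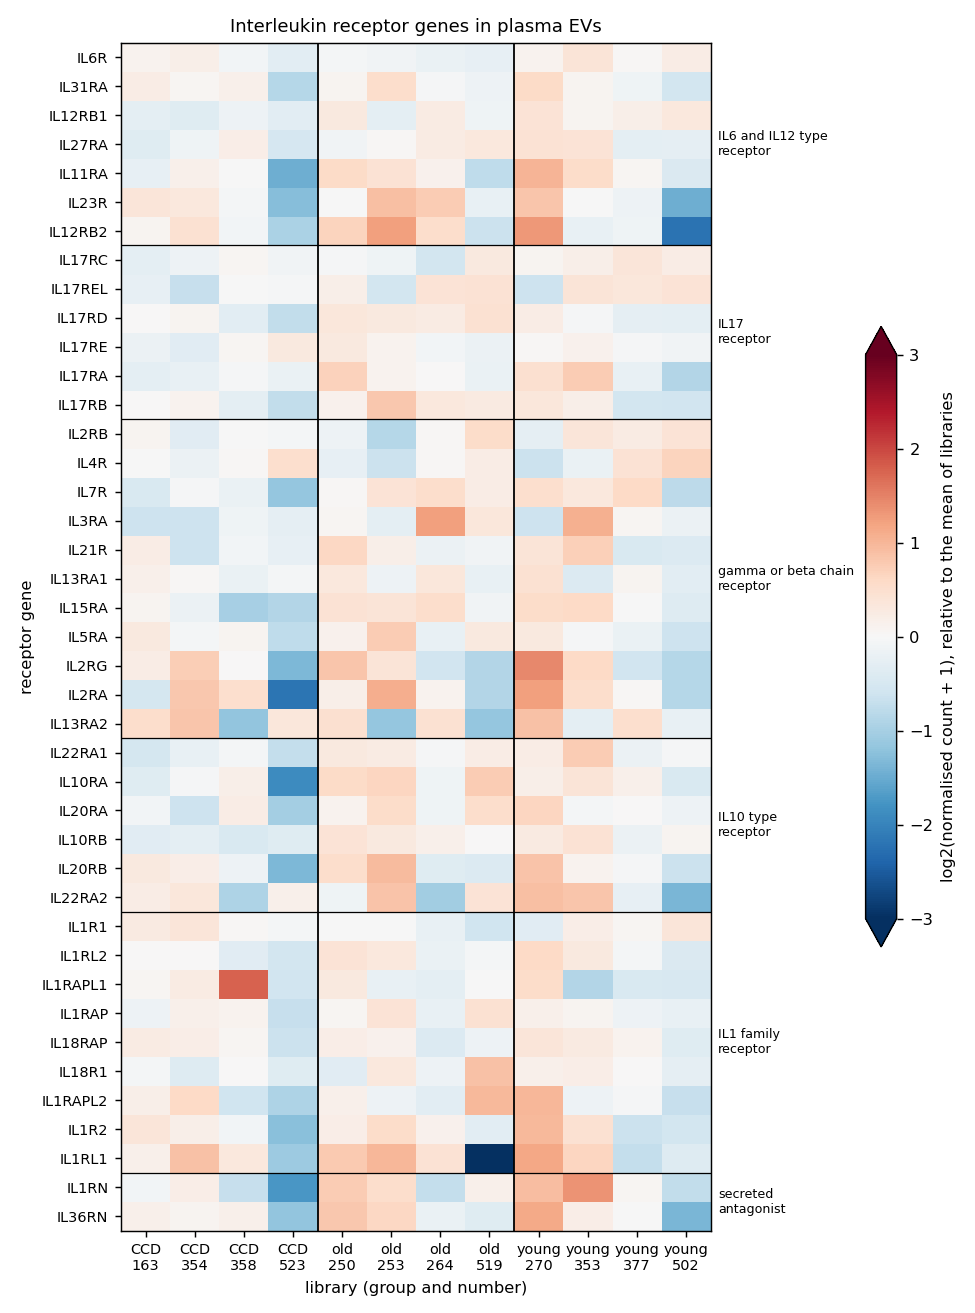
Level of the 41 receptor genes in the 12 EV libraries, as log2 of the normalised count plus 1 relative to the mean of the libraries, with CCD at the left, then old, then young, and genes grouped by receptor type; values beyond 3 in either direction are drawn at the end of the colour scale. CCD EV_523 held the lowest value of 20 of the 41 genes and young EV_270 the highest value of 17.

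Old EVs against young EVs gave 25 receptor genes that were higher and 16 that were lower, with a median log2 fold change of 0.07 beside 0.09 for all genes. Of all genes, 63.2% were higher and 36.8% lower. The balance of the receptor genes turned with the processing, to 19 higher and 22 lower with TMM and quantile scaling, 18 and 23 with edgeR, and 14 and 27 without young EV_502 (median -0.09). None passed limma with Benjamini-Hochberg adjustment (0% of all genes), edgeR or DESeq2, and at an unadjusted p under 0.05 there were 0 higher (0.753% of all genes) and 0 lower (0.489% of all genes). At that level edgeR had 0 higher and 1 lower, IL6R, and DESeq2 had 1 higher, IL17RD, and 1 lower, IL6R. IL17RD had 270.2, 263, 255 and 297 in old EVs, against 252.7, 211, 178 and 175 in young EVs, and every old library was above every young one (log2 fold change 0.43 ± 0.22, SE). Such a pattern of higher values was seen for 0.514% of all genes, and of lower values for 0.403%. IL6R had 510.2, 498, 463 and 452 in old, against 577, 700.1, 551 and 623 in young, with every old library below every young one (-0.35 ± 0.17). IL17RB, IL17RC and IL1R1 were at 0.53 ± 0.28, -0.32 ± 0.20 and -0.29 ± 0.21, with overlap. The limma adjusted p was 1 for each of these genes.

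CCD EVs against young EVs gave 7 receptor genes that were higher and 34 that were lower, with a median log2 fold change of -0.23 beside -0.17 for all genes. Of all genes, 27.8% were higher and 72.2% lower. The split of the receptor genes was 16 and 25 with TMM scaling (median -0.04), 19 and 22 with library weights and 18 and 23 without CCD EV_523. None passed limma with Benjamini-Hochberg adjustment (0% of all genes), edgeR or DESeq2. At an unadjusted p under 0.05, 0 were higher (0.136% of all genes) and 3 were lower (2.71% of all genes), IL10RB, IL12RB1 and IL22RA1, while with TMM scaling, edgeR and DESeq2 0 were lower and 1 was higher, IL1RAPL1. IL12RB1 had 157, 149, 173 and 153 in CCD, against 254, 202, 217 and 239.9 in young, with every CCD library below every young one at the deposited scaling (log2 fold change -0.52 ± 0.19, SE; -0.36 relative to all genes; limma adjusted p = 1). IL10RB and IL17RC did not overlap either, so 3 of 41 were lower beside 2.59% of all genes and 0 higher beside 0.126%, while with TMM, quantile, edgeR and DESeq2 scaling all 3 overlapped. IL10RB was at -0.52 ± 0.22 and IL22RA1 at -0.57 ± 0.24 (limma adjusted p = 1 for both). On the higher side IL1RAPL1 was at 0.69 ± 0.43 and IL1R1 at 0.08 ± 0.21, and IL1R1 was at -0.06 without young EV_270.

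Single libraries stood apart in EVs across the family. CCD EV_523 held the lowest value of 48.8% of the receptor genes and of 25.6% of all genes, and young EV_270 held the highest value of 41.5% of the receptor genes and of 21.0% of all genes. In cortex, young cortex_353 held the highest value of 33.3% of the 30 receptor genes and of 13.1% of all genes. EV_523 had 74.9% of its reads on transposable element families and EV_270 had 84.2%, the lowest and the highest of the 12. The 10 genes with the most reads took 42.8% of gene reads in EV_523 and 11.3% in EV_270, the highest and the lowest of the 12. The part of either share in the receptor values was not tested. The remaining receptors in EVs, IL2RA, IL2RG, IL5RA (the IL-5 receptor alpha chain), IL18R1, IL18RAP (its accessory chain), IL1R2, IL1RAP, IL1RAPL2, IL1RL1, IL1RL2, IL20RA, IL20RB, IL21R, IL23R, IL27RA, IL31RA, IL11RA, IL13RA1, IL17RA, IL17REL and IL3RA, had log2 fold changes of -0.74 to 0.30 for CCD against old, with an SE of 0.24 to 0.79.

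The lists of genes beside the receptors gave 0 genes that passed limma with Benjamini-Hochberg adjustment in any EV comparison. Of 40 tested interleukin ligands, 13 were higher and 27 lower in CCD than in old EVs, with a median of -0.20 beside -0.27 for all genes, and at an unadjusted limma p under 0.05 there were 0 higher and 3 lower, beside 0.64% and 5.34% of all genes. IL34, a ligand of the receptor CSF1R on microglia and monocytes, averaged 103 ± 13.4 in CCD EVs, against 174 ± 21.6 in old EVs (log2 fold change -0.75 ± 0.21, SE; limma adjusted p = 0.777). In the same comparison SPRY2 averaged 35.3 ± 6.25 in CCD, against 79.0 ± 24.9 in old (-1.11 ± 0.31, limma adjusted p = 0.777). In cortex IL34 was at 0.41 for CCD against old and at -0.89 ± 0.30 for old against young (limma adjusted p = 0.559).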

How the data were processed

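Cortex and EV libraries were sequenced as 150 bp read pairs, per the labels. The deposited tables hold signal values that the authors made as normalised counts. STAR and DESeq2 appear in the submitters' processing notes. The sources used here name no versions, genome build, annotation or counting settings. Every library of a table has the same total, and dividing by the value of 1 read gave whole reads, within 0.01, for 100.0% of values, so depth and counting tests use those recovered reads. The 822 transposable element families were left out of the tests.

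The main test was limma (3.58.1, R 4.3.3) with a mean-variance trend on log2 of the normalised count plus 1, over 19010 cortex and 31728 EV genes with a mean of 10 or more, fitted to all 3 groups of a tissue, with Benjamini-Hochberg adjustment at 0.05. It and the alternatives, edgeR (4.0.16) and DESeq2 (1.42.0), were tested on simulated data. Other alternatives were a pseudocount of 5, no filter, a mean of 50 or more, quantile and TMM scaling, the compared groups alone, library weights, leaving out each library, and cortex without 3 libraries with high meningeal markers. Intervals on read ratios are exact at 95% and floors are 3 reads, both for counting error only.

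The members and lists were chosen with earlier results of these data known. Each member is named; IL12RB2 and IL17RD are given in every library, with the 5 highest members of a tissue, the 2 on each side of the threshold, the 5 largest differences in each direction for CCD cortex, the 3 smallest p in each direction elsewhere, and up to 2 genes of smallest p per list. IL33, IL12A, IL12B and STAT4 were added after their values were seen. Sequence features of the receptors were not analysed here.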

Additional observations from a re-analysis of the deposited data

Results flagged for a closer look

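In 3 of the 123 groups of 4 EV libraries examined, or 2.44%, 1 library lay far from the other 3 of its group, where chance gives about 1 in 20. IL36RN had 24.1 normalised counts in CCD EV_523, against 59.3 to 62.7 in the other CCD libraries. IL17REL had 142 in young EV_270, against 279.9 to 289.8 in the other young libraries. IL20RA had 153 in young EV_270, against 88.3 to 98.3 in the other young libraries.

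For 2 receptors every CCD library lay above every old library in cortex and below every old library in EVs. Taken singly, 11.9% of all genes were higher without overlap in cortex and 5.08% lower without overlap in EVs. The share of all genes with both patterns is not given here. The cortex values are from the libraries that chose the family, so both genes are listed as a description. IL10RB had a log2 fold change of 0.57 in cortex and -0.58 in EVs, and IL17RB had 0.45 in cortex and -0.61 in EVs. The difference between the tissues, which share library numbers in each group, was not tested. The EV values include a median of -0.27 over all genes, and with TMM scaling no receptor gene was lower in CCD than in old EVs without overlap.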

How the results depend on the processing

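Groups of 3 or 4 libraries and 4 reads of IL17RD in CCD cortex limit the precision of every value. The number of receptor genes without overlap between CCD and old cortex was 8, and 9 to 13 when 1 library was left out (13 without CCD cortex_163). Between CCD and young cortex it was 6, 3 among genes with a mean of 50 or more, 6 to 12 when 1 library was left out (12 without CCD cortex_358, 10 without young cortex_353) and 21 without the 3 libraries with high meningeal markers. Fewer libraries make non-overlap easier, by construction. For old against young cortex DESeq2 called 4 receptor genes and limma 0, also with each library left out; the cause was not tested.

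The log2 fold change for CCD against old cortex was -1.91 for IL17RD with a pseudocount of 5, and -3.50 to -2.48 when 1 library was left out, and for IL12RB2 it was 0.45 to 0.63. Among the receptor genes named by the smallest p, the sign turned in EVs for IL1RAPL1 in CCD against old (-0.031 to 0.75 with 1 library left out, lowest without EV_358), IL1R1 in CCD against young (-0.057 to 0.18, lowest without EV_270) and IL12RB2 in CCD against young (-0.44 to 0.73, lowest without EV_502). For those named genes 394 repeats kept the sign and the side of the adjusted threshold, and 3 passed with DESeq2 alone. Over the whole family signs were less stable: leaving out 1 library turned the sign of 10, 6 and 12 of 30 genes in cortex and of 11, 23 and 22 of 41 in EVs, for CCD against old, old against young and CCD against young. No paired analysis of groups was possible because the groups compared within a tissue share no library numbers. Cortex and EV libraries that share a number were not analysed as pairs.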
